A study of Mus musculus with 8 samples.

Results

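The collagen genes were examined in mouse gastrocnemius, the large calf muscle, of animals with and without the glucocorticoid receptor in skeletal muscle. Members were all genes whose only symbol in the platform's probe annotation has the form Col, a number, a and a number. This gave 42 genes among the 18193 genes with a probe set of their own, and each was read from its probe set with the highest mean log2 signal over the 8 arrays. Total RNA of 1 muscle sample was hybridised to each Affymetrix array, and the values are MAS5 signals, a linear measure of how brightly a probe set lit up. The 4 control samples were labelled wild type and the 4 GR_KO samples GR KO, all on the strain background written C57/Bl6J. The series names the knockout muscle GR(i)skm-/-. The sources used here do not give the gene switch behind it or the age and sex of the mice. Nothing in the labels ties each sample to its own mouse, so the p-values below weigh the groups against a spread between samples that may be partly technical.

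Collagens are secreted proteins whose chains wind into a triple helix. Fibrillar collagens form the tension-bearing fibres of connective tissue, collagen IV forms the sheet of the basement membrane, and collagen VI forms fine beaded filaments that link the muscle fibre's surface to the matrix around it. In muscle most interstitial collagen is made by fibroblasts and fibro-adipogenic progenitors, while other cells, including endothelial cells and the fibres themselves, contribute to basement membranes. The glucocorticoid receptor, encoded by Nr3c1, is a hormone-activated transcription factor, and glucocorticoids are known to lower collagen synthesis in several connective tissues. In RNA of whole muscle, fewer cells of a type and less RNA per cell cannot be told apart.

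Trimmed means of 99.960 to 99.964 show that all arrays were brought to the same mean level by the authors, and the median signal lay between 18 and 26. The targeted gene checked the labels: of its 6 probe sets, the most clearly separated had signals of 307 to 377 in control and 76 to 134 in GR_KO muscle. Another had 100 to 189 in control and 29 to 43 in GR_KO muscle. The other Nr3c1 probe sets had groups that overlapped, with log2 fold changes of -0.38, -1.07, -1.34 and -0.32. Where each lies relative to the deleted part was not analysed here. All 14 skeletal muscle fibre markers listed passed the signal filter. Control replicate 4 stood apart. Its hybridisation spike-ins, bacterial transcripts added in fixed amount, were 3.17-fold as bright as the mean of the other controls, and its Gapdh 3' to 5' ratio, a sign of RNA integrity, was 1.2 against 0.797 to 0.915 on the other arrays. Its actin 3' to 5' ratio of 1.73 did not stand apart, as the other arrays had 0.991 to 1.84. It held the lowest value of 27.9% and the highest value of 26.4% of all genes tested. Differences at a gene's brightest probe set that move by over 1.5 times without it are therefore given with and without it.

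Most collagen genes had a higher mean in GR_KO muscle, but no difference passed the test over all genes. Of the 42 genes, 28 had a mean log2 signal above that of the median probe set on the arrays (19.4 as a signal) and were tested, and 14 were too dim. Among the 28, 23 had a log2 fold change above 0 and 5 below, with a median of 0.37, beside 52.2% above 0 and a median of 0.01 over all 11062 genes tested. In limma with Benjamini-Hochberg adjustment over all those genes, 0 of the 28 passed an adjusted p of 0.05, where 0.0542% of all genes did. The smallest adjusted p of a collagen gene was 0.88. At an unadjusted p under 0.05 there were 5 collagen genes, all higher in GR_KO muscle, where 4.63% of all genes passed in either direction and 2.37% in this one. These 5 were Col1a2, Col20a1, Col3a1, Col4a1 and Col15a1.

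The collagen counts depended on single arrays and on the settings. Without control replicate 4 the median collagen difference was 0.21, with 22 of 28 above 0, where 53.9% of all genes were above 0. The number of collagen genes at an unadjusted p under 0.05 was then 2, Col1a2 and Col20a1, where 4.57% of all genes passed. Leaving out control replicate 1 or GR_KO replicate 3 gave 0 such collagen genes, where 3.52% and 2.64% of all genes passed. Leaving out GR_KO replicate 4 gave 1 (3.16% of all genes) and GR_KO replicate 2 gave 3 (2.97%). Leaving out GR_KO replicate 1 gave 6 (10.8%), control replicate 2 gave 7 (7.3%) and control replicate 3 gave 10 (4.61%). With all arrays, median centring gave 1 (2.41%) and eBayes without a variance trend 2 (4.45%). The mean of probe sets gave 3 of 23 (4.87%). The spike-in signal as a covariate gave 6 (4.85%), and array weights (8.39%) and quantile normalization (4.51%) each gave 5. Pseudocounts of 2 and 6, a robust prior and a replicate block also gave 5, where 4.37% to 4.68% of all genes passed. In each of these limma fits 0 collagen genes passed an adjusted p of 0.05.

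**Figure D1:**
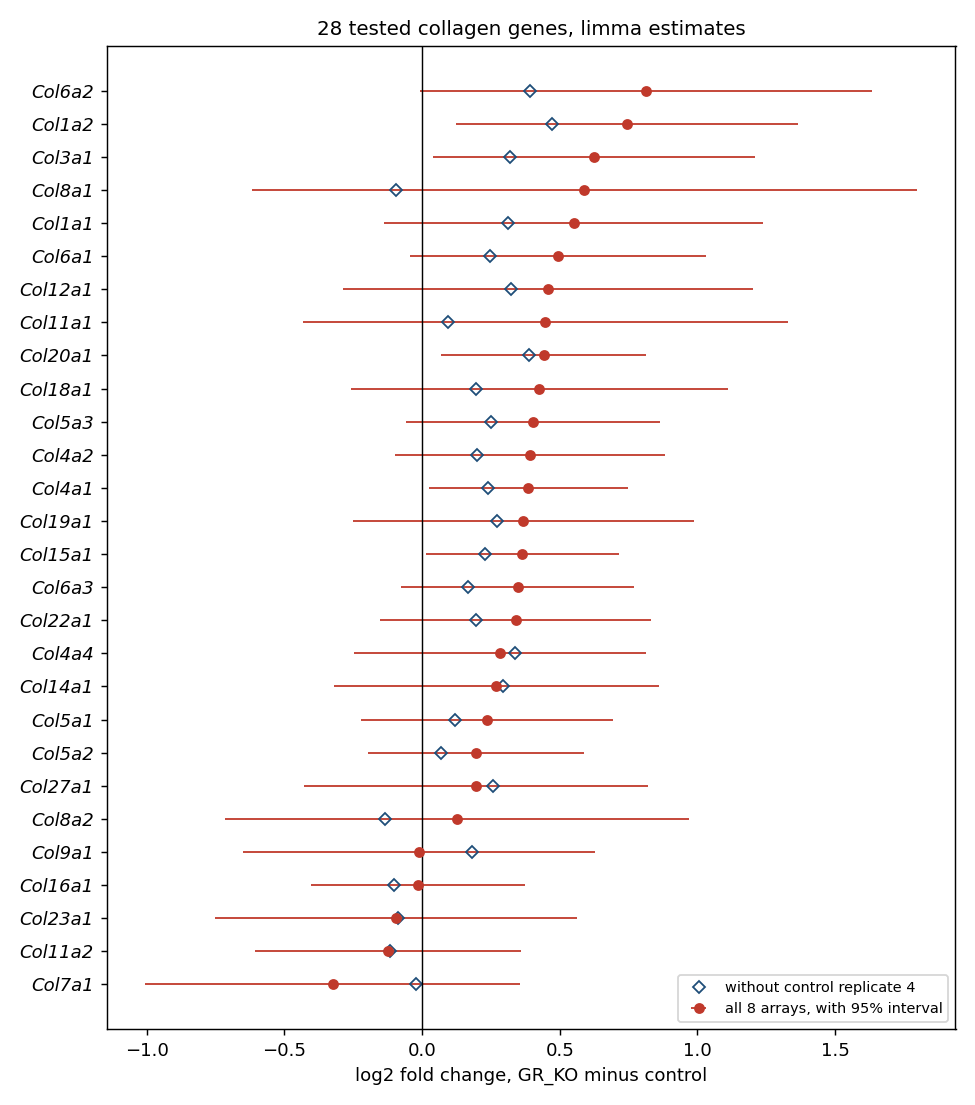
The log2 fold change (GR_KO minus control, horizontal axis) of the 28 tested collagen genes is drawn as a filled point with its 95% interval from limma, and the same estimate without control replicate 4 as an open diamond. Of the filled points 23 lie right of 0, and most diamonds lie nearer to 0 than the points.

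Collagen levels also varied between arrays of the same group. On each array the median over the 28 genes of the log2 signal, after subtracting each gene's mean over all arrays, was -0.22, 0.04, 0.16 and -0.61 for control replicates 1 to 4. It was 0.09, 0.00, 0.31 and 0.29 for GR_KO replicates 1 to 4. The groups overlapped, since control replicates 2 and 3 lay above GR_KO replicate 2. Of the 28 genes, 20 had their lowest value on control replicate 4, where 27.9% of all genes tested had theirs. The highest value was on GR_KO replicate 3 for 10 and on GR_KO replicate 4 for 8, against 13.9% and 14.3% of all genes. GR_KO replicates 3 and 4 each exceeded all controls at 16 of the 28 genes, against 6 for GR_KO replicate 1 and 9 for GR_KO replicate 2. This was not counted over all genes, so it cannot be called particular to collagens. The spread within groups was wider for collagens than for genes at large: the median within-group SD was 0.40 on the log2 scale for the 28 and 0.29 for all genes tested. Without control replicate 4 these were 0.33 and 0.25. A wide spread was not particular to collagens. Among the gene lists described below, this SD with all arrays was 0.47 for muscle fibre markers and 0.41 for genes of collagen breakdown. It was 0.32 for fibroblast markers and 0.31 for genes that fold and modify collagen.

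**Figure D2:**
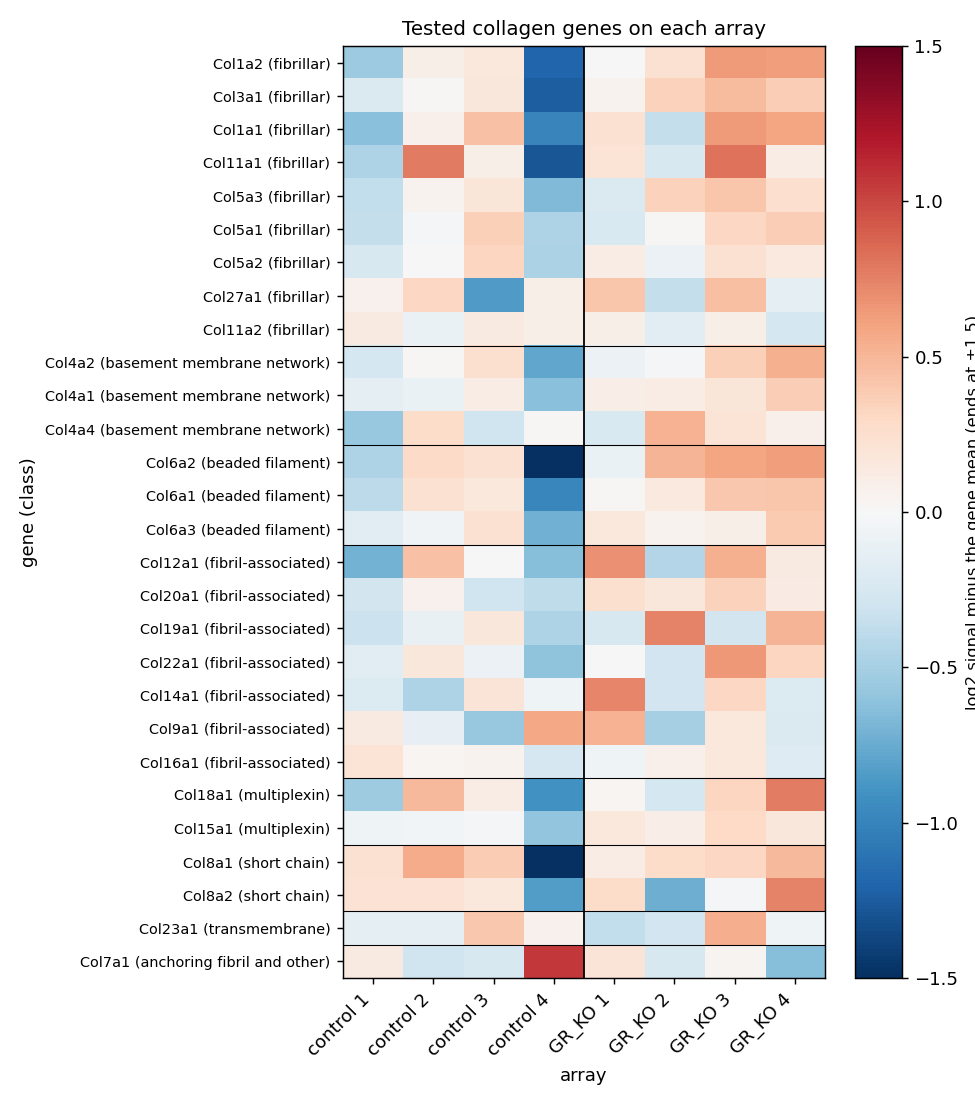
Each row is a tested collagen gene, grouped by class, each column an array, and the colour is the log2 signal minus the gene's mean over 8 arrays. The column of control replicate 4 is blue for most genes, 20 of which have their lowest value there, and those of GR_KO replicates 3 and 4 are mostly red.

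The fibrillar collagens, the fibre-forming class, mostly had positive differences. Of the 11 in the annotation 9 were tested, 8 with a log2 fold change above 0, and their median was 0.40 (0.25 without control replicate 4). Col1a2, the second chain of collagen I, had signals of 1896, 2947, 3099 and 1209 in control muscle and 2776, 3237, 4305 and 4264 in GR_KO muscle. The lowest GR_KO value lay below control replicates 2 and 3, so the groups overlapped. The means were 2288 ± 896 and 3646 ± 762 (SD, n = 4), a 1.68-fold difference with a log2 fold change of 0.74 ± 0.28 (SE, limma, adjusted p = 0.88). Without control replicate 4 it was 0.47 ± 0.21.

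Col1a1 encodes the chain that pairs with it in collagen I, the main collagen of the muscle's connective tissue. Its signals were 241, 393, 506 and 188 in control and 437, 292, 581 and 560 in GR_KO muscle. GR_KO replicate 2 was here lower than control replicates 2 and 3. The log2 fold change was 0.55 ± 0.31, with a 95% interval from -0.14 to 1.24, and 0.31 without control replicate 4.

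Col3a1, the chain of collagen III, which joins collagen I in the fibrils of the perimysium and endomysium, had signals of 2517, 2954, 3289 and 1239 in control and 3026, 3707, 4048 and 3773 in GR_KO muscle. Only GR_KO replicate 1 lay within the range of the controls. The log2 fold change of 0.62 ± 0.27 (adjusted p = 0.88) was 0.32 without control replicate 4, whose value was under that of every other array.

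Collagen V starts and limits the growth of collagen I fibrils. Col5a1 had signals of 145, 183, 238 and 134 in control and 158, 188, 229 and 240 in GR_KO muscle, and a log2 fold change of 0.24 ± 0.21 (0.12 without control replicate 4). Col5a2 had 170, 201, 250 and 144 in control and 217, 188, 234 and 222 in GR_KO muscle, and a log2 fold change of 0.20 ± 0.18 (0.07 without that array). In both genes control replicate 3 exceeded 3 of the 4 GR_KO arrays or all of them. Col5a3 had 245, 330, 359 and 201 against 274, 404, 425 and 378, a log2 fold change of 0.40 ± 0.21 (0.25 without control replicate 4). Collagen XI, a close relative best known from cartilage, was dimmer: Col11a1 had signals of 30, 71, 44 and 17 against 48, 35, 73 and 45, and Col11a2 had 25 to 33 on all arrays. The log2 fold changes of Col11a1, Col27a1 and Col11a2 were 0.45, 0.20 and -0.12, and that of Col11a1 was 0.09 without control replicate 4.

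**Figure D3:**
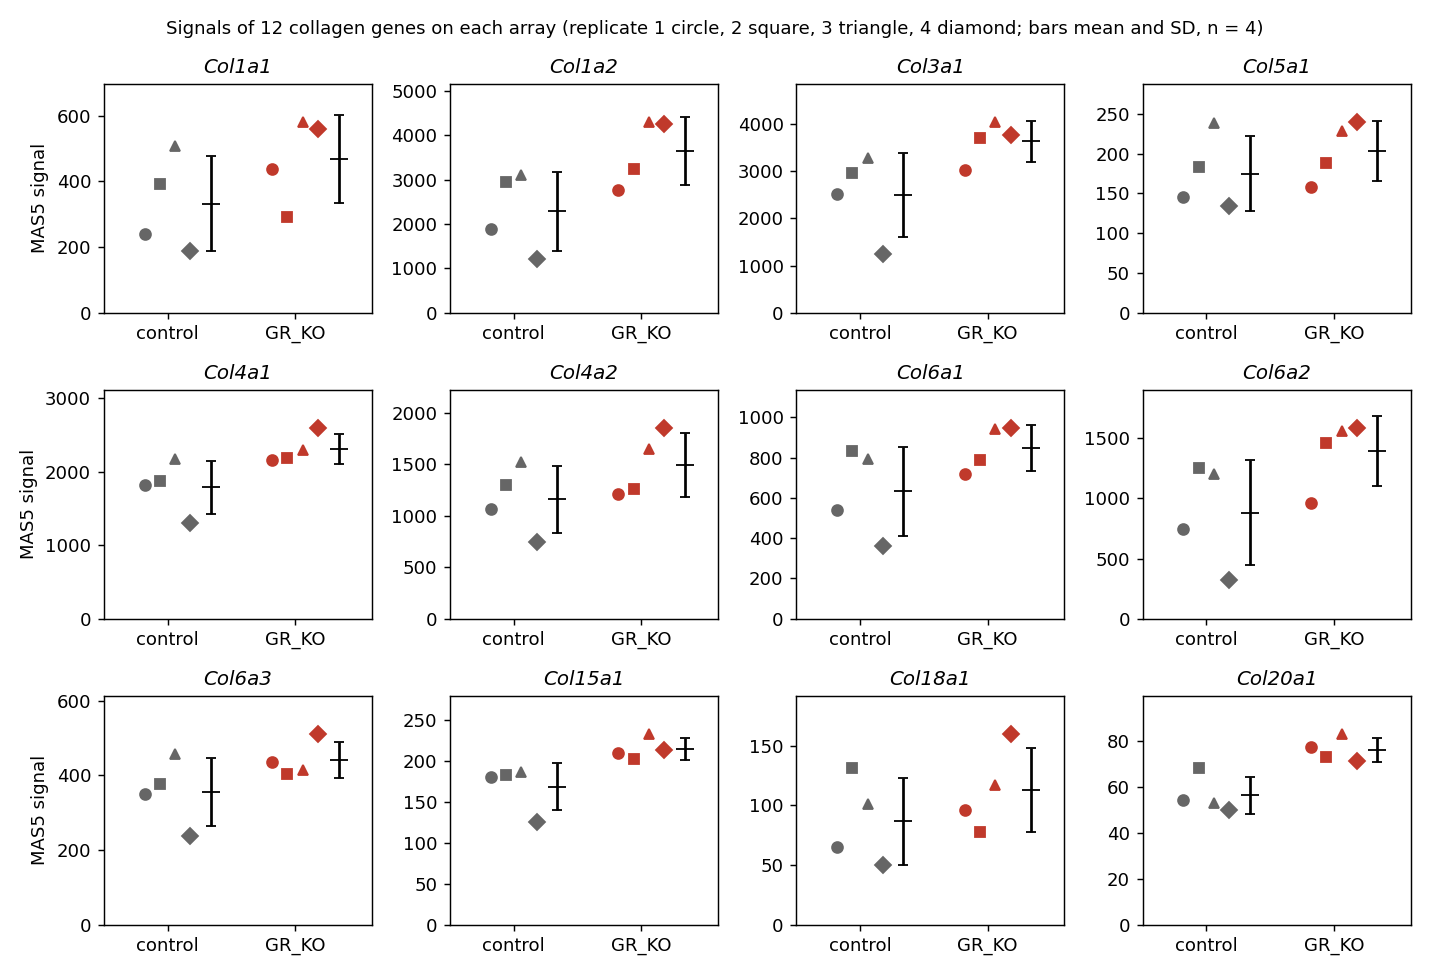
MAS5 signals (linear vertical axes starting at 0) of 12 collagen genes are drawn for each array, with the mean and SD of each group of 4 beside the points. The diamond of control replicate 4 is the lowest of all 8 values in each panel, and the groups do not overlap in the panels of Col15a1 and Col20a1.

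The promoter windows of Col1a2 and Col3a1, the fibrillar members with the smallest p-values, differ in the motifs they hold. Sequences are RefSeq's in build GRCm38.p6 and run 5' to 3' on the strand of the gene, from 250 bases before to 50 bases after the annotated start. Capitals mark the motifs searched on both strands: the glucocorticoid half-site TGTTCT, the CCAAT box CCAAT, the GC box GGGCGG and the TATA box TATAAA. Col1a2 lies at chr6:4505368-4505667 on the plus strand, with 2 GC boxes and 2 CCAAT boxes. Col3a1 lies at chr1:45311288-45311587 on the plus strand, with 1 TATA box beginning at -117. Whether any of these motifs acts at the start was not tested.
Col1a2: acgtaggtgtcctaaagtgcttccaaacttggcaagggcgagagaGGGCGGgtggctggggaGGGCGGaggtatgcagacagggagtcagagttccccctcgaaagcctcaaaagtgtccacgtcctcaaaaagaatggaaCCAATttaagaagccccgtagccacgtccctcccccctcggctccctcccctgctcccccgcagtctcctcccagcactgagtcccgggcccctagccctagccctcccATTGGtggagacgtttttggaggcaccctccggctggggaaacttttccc
Col3a1: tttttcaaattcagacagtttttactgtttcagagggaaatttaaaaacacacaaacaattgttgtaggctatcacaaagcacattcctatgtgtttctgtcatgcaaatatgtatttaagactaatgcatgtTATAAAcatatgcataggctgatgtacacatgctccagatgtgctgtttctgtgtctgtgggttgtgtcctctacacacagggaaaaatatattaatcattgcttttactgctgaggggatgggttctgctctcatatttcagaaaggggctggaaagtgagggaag

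The basement membrane collagens had positive differences where they passed the filter. Of 6 collagen IV genes 3 were tested, all with a log2 fold change above 0 and a median of 0.39 (0.24 without control replicate 4). Col4a1, which with Col4a2 forms the collagen IV of nearly all basement membranes, had signals of 1818, 1870, 2169 and 1299 in control and 2155, 2181, 2289 and 2597 in GR_KO muscle. GR_KO replicate 1 alone lay within the control range, just under control replicate 3. The means were 1789 ± 361 and 2306 ± 203, and the log2 fold change was 0.39 ± 0.16 (adjusted p = 0.88), or 0.24 without control replicate 4.

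Col4a2 had signals of 1069, 1298, 1521 and 750 in control and 1212, 1266, 1649 and 1857 in GR_KO muscle. Its groups overlapped more, as GR_KO replicates 1 and 2 lay below control replicates 2 and 3, and its log2 fold change was 0.39 ± 0.22, or 0.20 without control replicate 4. The third tested gene, Col4a4, a chain best known from the kidney filter, was dim, with signals of 34, 61, 41 and 51 against 43, 72, 58 and 53 and a log2 fold change of 0.28 ± 0.24. Col4a3, Col4a5 and Col4a6 did not pass the signal filter.

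Col4a1 and Col4a2 lie head to head and are shown because they share their promoter. The window of Col4a1 is chr8:11312777-11313076 on the minus strand and that of Col4a2 chr8:11312555-11312854 on the plus strand, so 78 bases are common to both windows, read from opposite strands. The annotated starts are 21 bases apart. Capitals again mark the motifs: Col4a1 has 1 GC box and 1 CCAAT box, Col4a2 has 3 and 1, and neither window holds TGTTCT or TATAAA.
Col4a1: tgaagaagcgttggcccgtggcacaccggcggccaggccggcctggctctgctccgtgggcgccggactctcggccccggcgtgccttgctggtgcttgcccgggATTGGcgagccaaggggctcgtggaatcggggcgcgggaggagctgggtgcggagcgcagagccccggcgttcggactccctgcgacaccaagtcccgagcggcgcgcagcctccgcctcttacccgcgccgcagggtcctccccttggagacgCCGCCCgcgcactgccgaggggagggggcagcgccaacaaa
Col4a2: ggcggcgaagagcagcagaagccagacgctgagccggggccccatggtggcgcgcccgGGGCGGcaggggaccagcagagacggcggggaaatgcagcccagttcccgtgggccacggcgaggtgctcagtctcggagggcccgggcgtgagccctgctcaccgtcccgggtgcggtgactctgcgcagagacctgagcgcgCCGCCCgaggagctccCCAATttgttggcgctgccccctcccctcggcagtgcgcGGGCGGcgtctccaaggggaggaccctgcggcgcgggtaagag

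Among the collagens with a promoter window, a larger share of windows held a GC box than of windows at large. There were 36 windows for 33 of the 42 members, 23 of them tested, and Col1a1 and Col5a2 were among those without one. The windows are not all separate. The 2 of Col6a2 overlap, and those of Col4a1 and Col4a2 share a GC box. GGGCGG was present in 61.1% of the 36 windows and in 35.7% of all 32851 windows, CCAAT in 36.1% and 37.4%, and TATAAA in 13.9% and 13.6%. The half-site TGTTCT was in 2 of the 36 windows, those of Col20a1 and Col9a1, or 5.56%, against 19.0% of all windows. The full palindromic glucocorticoid response element, which contains the half-site on each strand, was in 0 of the 36 and in 3 of all windows. These matches describe letters in 300 bases and say nothing of binding.

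The beaded-filament collagens all had positive differences. The 3 chains that assemble into muscle collagen VI, Col6a1, Col6a2 and Col6a3, whose mutations cause congenital muscle weakness, were tested, with a median log2 fold change of 0.49 (0.25 without control replicate 4). Col6a2 had signals of 748, 1253, 1202 and 322 in control and 962, 1460, 1557 and 1587 in GR_KO muscle. Control replicate 4 was far below the rest, and GR_KO replicate 1 lay below control replicates 2 and 3. The log2 fold change was 0.81 ± 0.37 (SE, adjusted p = 0.88), the highest of the 28, with a 95% interval from -0.01 to 1.64. It was 0.39 ± 0.22 without control replicate 4, where Col1a2 was the highest.

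Col6a1 had signals of 542, 834, 794 and 360 in control and 719, 789, 943 and 949 in GR_KO muscle, with a log2 fold change of 0.49 ± 0.24. Col6a3 had 350, 376, 457 and 237 in control and 436, 403, 415 and 512 in GR_KO muscle, with a log2 fold change of 0.35 ± 0.19. In both genes the lowest array was control replicate 4 and the highest GR_KO replicate 4. Without control replicate 4 the estimates were 0.25 and 0.17. Col6a4 and Col6a5, which can take the place of Col6a3, were too dim to test.

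Among the fibril-associated collagens, which sit on the surface of fibrils or at junctions, 7 of 9 were tested, 5 with a log2 fold change above 0. Col20a1 had signals of 54, 68, 53 and 50 in control and 77, 73, 83 and 71 in GR_KO muscle. All 4 GR_KO values lay above all 4 control values, one of only 2 collagen genes for which this held, where 2.58% of all genes had groups that did not overlap (1.28% with GR_KO higher and 1.29% with GR_KO lower). The log2 fold change was 0.44 ± 0.17 (adjusted p = 0.88) and kept near that size, 0.39 ± 0.18, without control replicate 4. The other Col20a1 probe sets above the filter did not repeat it, at -0.03 and 0.14.

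Col22a1, a collagen of the myotendinous junction, had signals of 186, 235, 197 and 138 against 208, 171, 329 and 261, a log2 fold change of 0.34 ± 0.22 (0.20 without control replicate 4). Col12a1, found in tendon and fascia, had 19, 42, 31 and 20 against 50, 23, 45 and 34, and Col19a1 had 32, 37, 45 and 29 against 34, 67, 33 and 57. Their log2 fold changes were 0.46 ± 0.34 and 0.37 ± 0.28, with broad overlap of the groups. Col14a1, Col16a1 and Col9a1 had 0.27, -0.01 and -0.01, or 0.29, -0.10 and 0.18 without control replicate 4.

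Col15a1 and Col18a1 are the multiplexins, basement membrane proteoglycans, of which collagen XV anchors muscle fibres and capillaries to the matrix and collagen XVIII yields endostatin. Col15a1 had signals of 180, 183, 186 and 125 in control and 210, 202, 233 and 213 in GR_KO muscle. It was the other gene whose groups did not overlap, and its log2 fold change of 0.36 ± 0.16 (adjusted p = 0.88) was 0.23 ± 0.13 without control replicate 4. Col18a1 had 65, 131, 101 and 50 against 96, 78, 117 and 160, a log2 fold change of 0.43 ± 0.31 (0.19 without control replicate 4), and its groups overlapped. Together with collagen IV, the tested basement membrane members all had a mean above that of the controls.

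The remaining tested genes were dim and showed no common direction. Col8a1, a short-chain collagen of vessel walls, had signals of 36, 45, 40 and 6 in control and 33, 37, 38 and 43 in GR_KO muscle. Its log2 fold change of 0.59 ± 0.55 came from control replicate 4 alone, and was -0.10 without it. Col8a2 had 0.13 and turned to -0.13 without that array, Col23a1, a transmembrane collagen, had -0.09, and Col7a1, the anchoring fibril collagen of skin, had -0.32. Col7a1 was highest, at 124, on control replicate 4, and had -0.02 without it.

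The 14 genes below the filter were Col2a1, Col4a3, Col4a5, Col4a6, Col6a4, Col6a5, Col9a2, Col9a3, Col10a1, Col13a1, Col17a1, Col24a1, Col25a1 and Col26a1. Many belong to cartilage, epithelia or nerve. Their signals lay between 1 and 28, where MAS5 values are mostly noise. Col2a1, the collagen of cartilage, had 1, 13, 9 and 1 in control and 15, 28, 19 and 11 in GR_KO muscle and was not tested. Col17a1 had 16, 9, 17 and 11 against 1, 8, 9 and 10. Over all 42 genes the median log2 fold change was 0.31, with 30 above 0.

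Further probe sets of the same genes mostly gave the same sign. The 42 genes had 82 probe sets, of which 45 were above the filter, and 38 of these had a log2 fold change above 0. In a separate limma fit of the 19223 single-gene probe sets above the filter, 0 of the 45 passed an adjusted p of 0.05, where 0.026% of all did. At an unadjusted p under 0.05 there were 7 of the 45, where 4.17% of all passed. Of 13 genes with more than 1 such probe set, 11 had all in the same direction, the exceptions being Col20a1 and Col4a4. The sizes differed within genes. The other Col1a1 probe set had 0.86, with signals of 204, 407, 337 and 85 against 387, 289, 564 and 409. The others of Col5a1 had 0.48 and 0.48, against 0.24 at the brightest. That of Col3a1, a dim one, had 0.16 against 0.62.

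**Figure D4:**
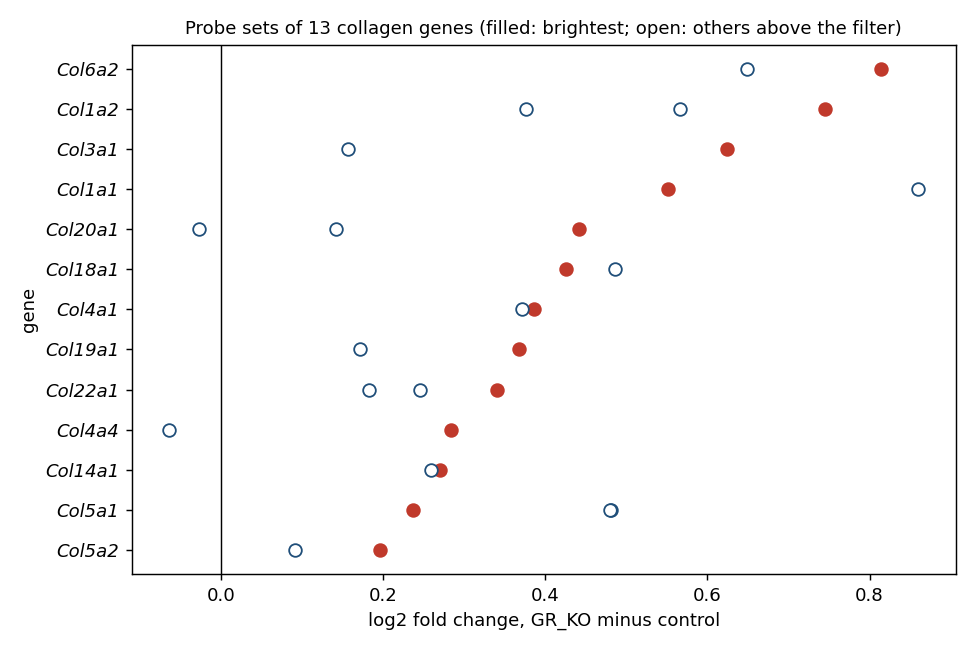
For the 13 collagen genes with more than 1 probe set above the signal filter, the log2 fold change (GR_KO minus control) of the brightest is a filled point and that of each other probe set an open circle. In 11 genes all lie right of 0, and an open circle lies left of 0 for Col20a1 and for Col4a4.

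Genes that make collagen were also compared, from lists written by function, though with earlier results of these data known. Of 21 tested genes that fold and modify collagen chains, 15 had a log2 fold change above 0, with a median of 0.12 (0.02 without control replicate 4). In limma 0 passed an adjusted p of 0.05, and 2 had an unadjusted p under 0.05, where 4.63% of all genes did. Creb3l1, a transcription factor that activates collagen genes in the secretory stress response, had signals of 41, 57, 39 and 36 in control and 67, 91, 63 and 67 in GR_KO muscle. All its GR_KO values exceeded all control values, with a log2 fold change of 0.74 ± 0.21 (adjusted p = 0.85) and 0.66 without control replicate 4. Serpinh1, the collagen chaperone HSP47, had 483, 735, 625 and 323 against 624, 744, 994 and 854, a log2 fold change of 0.61 ± 0.24 (0.39 without control replicate 4). Crtap, a partner of the prolyl 3-hydroxylase, had 0.48 ± 0.26 (0.22 without control replicate 4).

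Of 6 tested genes that trim or cross-link procollagen, 5 had a log2 fold change above 0, with a median of 0.21 (0.11 without control replicate 4). Pcolce, which enhances removal of the C-terminal propeptide, had 0.57 ± 0.26, its relative Pcolce2 0.46 ± 0.34 and the cross-linking enzyme Loxl1 0.26 ± 0.17. Without control replicate 4 these were 0.33, 0.10 and 0.12. Of 14 tested proteoglycans and organisers of fibrils, 10 were above 0, with a median of 0.21 (0.13 without control replicate 4). The small collagen-binding proteins Prelp, Sparc and Dcn had 0.32 ± 0.15, 0.65 ± 0.32 and 0.34 ± 0.18, or 0.32, 0.31 and 0.23 without that array. In neither list did a gene pass adjusted or unadjusted p of 0.05 in limma.

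Genes of collagen breakdown and their inhibitors mostly had positive differences. Of 12 tested, 11 were above 0, with a median of 0.35 (0.22 without control replicate 4). In limma 0 passed the threshold, and 1 had an unadjusted p under 0.05, where 4.63% of all genes did. The metalloproteinase inhibitor Timp3 had 0.33 ± 0.15, the collagen-cleaving cathepsin Ctsk 0.74 ± 0.35 and the inhibitor Timp2 0.45 ± 0.25. Without control replicate 4 these were 0.30, 0.37 and 0.21. Receptors of collagen differed in sign: of 6 tested, 2 were above 0, with a median of -0.10 and 0 at an adjusted or unadjusted p under 0.05 in limma. Cd44 had 0.36 ± 0.21, the collagen-activated kinase Ddr2 -0.30 ± 0.22 and the integrin chain Itgb1 -0.17 ± 0.17, or 0.34, -0.15 and -0.31 without control replicate 4.

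The transforming growth factor beta pathway is a main inducer of collagen genes. Of 16 tested ligands, receptors and targets, 9 had a log2 fold change above 0, with a median of 0.09 (0.06 without control replicate 4). In limma 0 passed the threshold, and 1 had an unadjusted p under 0.05, where 4.63% of all genes did. Tgfb2, a ligand, had signals of 186, 223, 189 and 142 in control and 269, 293, 272 and 236 in GR_KO muscle. Its groups did not overlap, and its log2 fold change was 0.55 ± 0.16 (adjusted p = 0.85), or 0.42 without control replicate 4. Ltbp3, which binds the latent ligand, had 0.37 ± 0.18 (0.24 without that array), and the receptor Tgfbr1 -0.24 ± 0.13.

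Markers of the cells that make collagen were also mostly above 0. Of 18 fibroblast and fibro-adipogenic progenitor markers other than collagens, 14 had a log2 fold change above 0, with a median of 0.29 (0.17 without control replicate 4). Their summed signal was 13681 to 17765 in control and 14878 to 20889 in GR_KO muscle, lowest on control replicate 4 and highest on GR_KO replicate 3, as for the collagen median. On both scales control replicate 4, control replicate 1 and GR_KO replicate 2 had the lowest medians and GR_KO replicates 3 and 4 the highest. Fstl1 and Pcolce had 0.57 and 0.57, or 0.36 and 0.33 without control replicate 4. Pcolce, Dcn and Lum are also in the lists by function above, as are Kera and Fmod of the tendon markers below. These lists are therefore not separate observations. Pdgfra, the receptor that defines fibro-adipogenic progenitors, ran the other way, with 204, 160, 212 and 183 in control and 203, 129, 119 and 132 in GR_KO muscle and a log2 fold change of -0.41 ± 0.19 (-0.42 without control replicate 4; this gene was chosen after its values were seen). Of 14 skeletal muscle fibre markers 12 had a log2 fold change below 0, with a median of -0.09 (0.14 without control replicate 4). The summed skeletal muscle fibre signal was 272881 on control replicate 4 against 131393 to 147925 on the other controls and 118998 to 180154 on the GR_KO arrays. The part of cell content, fibre signal and RNA integrity in the collagen differences was not tested.

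**Figure D5:**
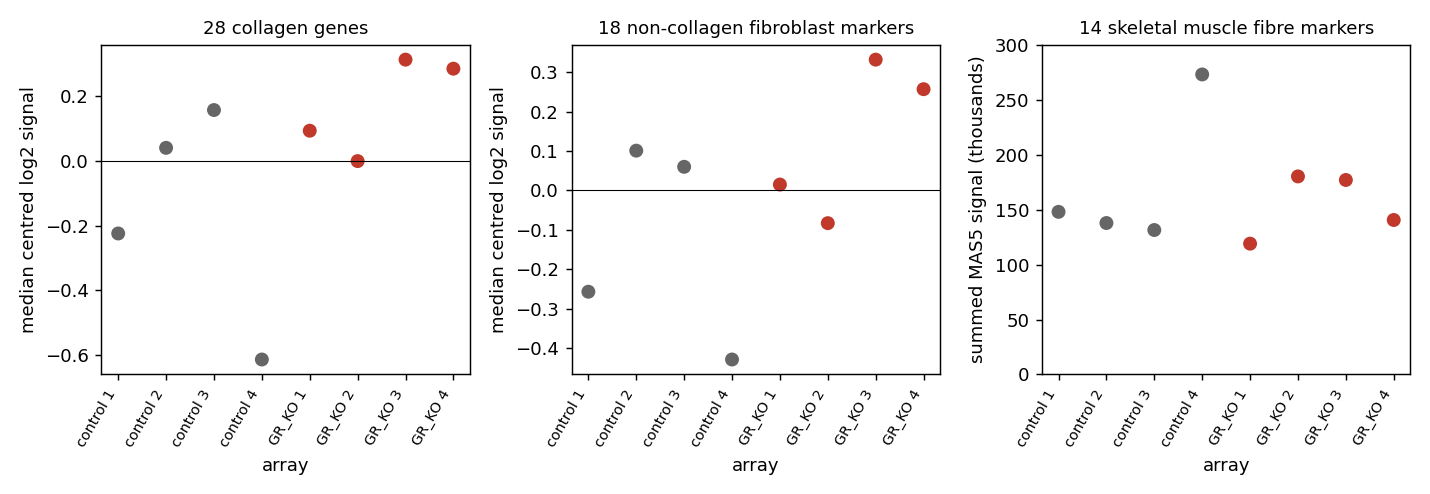
For each array (horizontal axis) the panels show the median centred log2 signal of the 28 tested collagens, that of the 18 fibroblast markers without collagens, and the summed MAS5 signal of 14 muscle fibre markers. Control replicate 4 is lowest in both medians, at -0.61 and -0.43, and highest in the fibre sum.

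Other cells that make or border collagen gave these values. Of 16 endothelial markers 14 were above 0, with a median of 0.32, and Cldn5 and Sox18 had 0.61 and 0.58. Their sums were 7794 to 10302 in control and 8144 to 11883 in GR_KO muscle. Much of these sums was 1 gene, Fabp4, which is also in the adipocyte list. It had 2137 to 5501 in control and 2051 to 3603 in GR_KO muscle, so the overlap of the sums says little about the other markers. Of 8 tested tendon and myotendinous junction markers 5 were above 0, with sums of 579 to 1283 and 686 to 1661, and Ankrd1 and Kera had -0.49 and 1.15 (-0.57 and 0.42 without control replicate 4). Of 6 Schwann cell markers 6 were above 0, with sums of 1079 to 3851 and 1409 to 4134, and Mag and Mbp had 0.61 and 0.68 (0.42 and 0.36 without that array). Smooth muscle and pericyte markers had a median of 0.10 (0.04 without control replicate 4) and sums of 14043 to 18039 and 14090 to 17014. Des alone had 6518 to 8657 and 5744 to 8350 of these. Macrophage and leukocyte markers had a median of 0.01 (0.15 without control replicate 4) and sums of 651 to 1860 and 677 to 1278. The highest sum, on control replicate 4, held a Ptprc signal of 999. Of the dimmer lists, adipocyte markers had sums of 2245 to 5559 and 2151 to 3695, erythrocyte markers 116 to 265 and 132 to 236, and chondrocyte and bone markers, of which 1 of 5 passed the filter, 55 to 67 and 49 to 97. In the marker lists limma passed 0 genes at an adjusted p of 0.05, and no marker was at 0 on every array. At an unadjusted p under 0.05 were 4 of 16 endothelial, 1 of 18 fibroblast and 1 of 8 tendon markers. Of all genes 4.63% passed.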

How the data were processed

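Signal intensities on a linear scale were deposited as whole numbers. The authors used MAS5 (per the submitters' processing notes); no source used here gives its version or scaling target. Of 45101 probe sets, 64 controls were left out, and 34945 of the rest had 1 gene symbol in the platform annotation. Of these, 34741 matched a RefSeq table by gene identifier.

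The log2 of the signal was used with no pseudocount; a 0 became the smallest positive value of its array, which touched 0 values of the tested collagens. Each gene was read from its brightest probe set, and genes whose mean log2 signal exceeded that of the median probe set, 11062 of 18193, were tested. Groups were compared with limma 3.58.1 in R 4.3.3 (eBayes with trend, two-sided, Benjamini-Hochberg over all genes tested, threshold 0.05), with the group as the only term. Fold changes are GR_KO minus control on the log2 scale, with standard errors of the fit, and are relative to each array's scaling. On data simulated for these 11062 genes the test recovered 13.1% of genes changed by 0.58, 52.7% at 1.00 and 79.8% at 1.50, with 5.68% of calls false. Noise was drawn independently for each gene, with no effect shared by an array, and 200 genes were changed in each run. These rates may therefore not hold for the collagens. Their median difference of 0.37 was also below the smallest size simulated. Figures were drawn with Python 3.11.15.

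The rule for genes with a value on every array took Nr3c1, 12 collagens by name (those of collagens I, III, VI, XV and XVIII, Col5a1, Col5a2, Col4a1 and Col4a2) and the 8 further tested ones with the smallest p. It took up to 3 genes of each pathway list and up to 2 of each marker list with the smallest p. Col11a2, Col2a1 and Col17a1 are given outside it, chosen after their values were seen. Members, lists and tests were chosen with earlier results of these data known.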

Additional observations from a re-analysis of the deposited data

Results flagged for a closer look

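In 3 of the 40 groups of 4 arrays checked, 2 for each of the 20 collagen genes named by the rule, an array lay apart from the others by more than Dixon's 95% critical value. Chance flags about 1 in 20 such groups. Col15a1 had a signal of 125 on control replicate 4 and 180 to 186 on the other controls. Col8a1 had a signal of 6 on control replicate 4 and 36 to 45 on the other controls. Col6a2 had 962 on GR_KO replicate 1 and 1460 to 1587 on the other GR_KO arrays.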

How the results depend on the processing

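Alternatives were quantile normalization, median centring, pseudocounts of 2 and 6, dropping the filter or raising it to the 70th percentile, mean of probe sets or every probe set, eBayes with no trend, a robust prior, weights for arrays, a replicate block, the spike-in signal as covariate, and leaving out each array. The number of collagen genes past the threshold was 0 under all of them, as was that of the collagen pathway lists. The collagen median of 0.366 lay at 0.265 to 0.419 except for 0.45 without control replicate 3 and 0.213 without control replicate 4. Each move was smaller than 0.265, the pooled within-group SD of the array medians. That SD is a loose measure, as control replicate 4, at -0.61, widens it. Of 412 values of the 20 collagen genes named by rule, 411 kept their sign and stayed short of the threshold. Col8a1 had -0.10 without control replicate 4, the lowest of a range up to 0.87 with arrays left out. The rule took genes partly by smallest p, so this count does not cover the less stable tested collagens outside it. Of these, Col8a2 and Col9a1 turned sign without control replicate 4, to -0.13 and 0.18. Col16a1 turned to 0.05 without control replicate 1. Without control replicate 3, Col27a1 turned to -0.05 and Col23a1 to 0.02. Col7a1, Col11a2 and Col14a1 kept their sign with each array left out. The count of collagens with non-overlapping groups, 2, was 1 with the mean of probe sets and 0 with median centring (3.03% and 1.51% of all genes, against 2.58%), which widened the median within-group SD of all genes from 0.286 to 0.353, and ranged from 2 to 7 with arrays left out (5 without control replicate 3 and 7 without GR_KO replicate 1, where 4.37% and 12.4% of all genes had such groups, and 2 in the others, where 3.85% to 6.03% had). The 6 genes called among all became 10 with array weights, 2 without trend, 1 with the mean of probe sets, 0 without a filter, 3 with the spike-in covariate and 0 to 5 with arrays left out: 0 without control replicate 1 or 3 or GR_KO replicate 2 or 4, 3 without control replicate 2 and 2 without GR_KO replicate 3. The causes were not tested. With the replicate block 1 gene was called. Same-numbered deviations correlated at -0.192, 0.181, 0.111 and -0.395. These values gave no sign that the numbers pair the samples, but so few arrays cannot exclude it. The block changed no call of a collagen gene.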
